A study of Oryza sativa with 6 samples.

Results

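Argonaute proteins are the effectors of RNA silencing, in which a small RNA held by the protein guides it to a target transcript or locus. Plant families have divided this work: AGO1 proteins mainly load microRNAs and slice or repress their targets, AGO4 proteins load the small interfering RNAs that direct DNA methylation, and other members act in germ cells or in defence. Rice anthers are a special case, because they make large amounts of phased small RNAs, called phasiRNAs, and MEL1 is the germ cell Argonaute that binds a large class of them.

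The Argonaute genes described here are 10 rows chosen by identifier from the 94013 rows of the deposited table: MEL1, the AGO1 genes AGO1a, AGO1b, AGO1c and AGO1d, AGO2, the AGO4 genes AGO4a and AGO4b, AGO17 and AGO18. The rule names identifiers and uses no threshold on a value, although earlier results of these data were known when the list was drawn up. Other rice Argonaute genes were not analysed here. All 10 were in the table and all 10 passed the filter on low values. The table gives identifiers without names, so the symbols rest on the pairing that defined the list. The reference gene table lists the symbols of all 10 as synonyms, each on the chromosome that the numerals of its rice identifier give, but it does not list the identifiers themselves.

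RNA was taken from anthers of rice (Oryza sativa) plants aged 3 months, between the tetrad stage, when the meiotic products are still held together, and the early microspore stage. The groups were dmd1 mutant anthers and anthers of wild-type plants, with 3 libraries each, which the series calls biological replicates. The labels do not describe the dmd1 allele, the genetic background or how many plants went into a library. DMD1 expression was not analysed here. Values are FPKM, fragments per kilobase of transcript and per 1000000 mapped fragments, so levels of different genes can be compared per length. The number of fragments behind each value is unknown. The differences were fitted with limma on log2(FPKM + 1), with p-values adjusted by the Benjamini-Hochberg method over all 25474 rows tested. A gene is said to have risen or fallen where the adjusted p was under 0.05.

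The FPKM total ran from 808227 to 1050340 in dmd1 libraries and from 909365 to 1287424 in wild-type libraries. Wild-type library 2, with the highest total, and dmd1 library 1 deviated from their group means in a similar way (r = 0.49 across rows, which are not independent replicates). The log2 changes and the counts of called members were therefore also fitted without that pair of libraries. All 10 listed tapetum markers were detected, with mean levels from 16.7 FPKM (UDT1) to 1962 FPKM (PKS1) in dmd1 and from 15.7 FPKM (UDT1) to 11532 FPKM (C6) in wild-type anthers. The dmd1 libraries were not alike in some of them. In dmd1 libraries 1 to 3, C6 was at 2039, 360 and 2.39 FPKM and PTC1 at 90.0, 71.2 and 14.6 FPKM. UDT1 was at 15.2, 19.2 and 15.8 FPKM in the same libraries.

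AGO18 fell in dmd1 anthers, and it was the Argonaute gene among the 10 that passed the test. AGO18 (OS07G0471300) belongs to a grass-specific branch of the family and is known in rice for defence against viruses, where it binds miR168 and thereby relieves AGO1 of repression. Its level was 5.75, 4.78 and 3.996 FPKM in dmd1 libraries 1 to 3, against 27.6, 28.9 and 24.4 FPKM in wild-type libraries 1 to 3. The highest dmd1 library lay far below the lowest wild-type library. AGO18 averaged 4.84 ± 0.88 FPKM in dmd1 and 27.0 ± 2.30 FPKM in wild-type anthers (SD, n = 3 each), a level 5.57-fold lower in dmd1. The log2 change was -2.27 ± 0.15 (SE, limma adjusted p = 0.00244), with a 95% interval from -2.64 to -1.90. By unadjusted p the row stood at rank 30 among the 25474 tested, and 325 rows had a more negative log2 change.

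With each library left out in turn, the log2 change of AGO18 ran from -2.38 to -2.16. Without dmd1 library 1 and wild-type library 2 the log2 change was -2.33 (limma adjusted p = 0.00887). It was -2.15 between that pair of libraries alone. When each library's FPKM values were rescaled to sum to 1000000, here called equal totals, AGO18 stood at 5.48, 5.26 and 4.94 in dmd1 and at 27.3, 22.4 and 26.9 in wild-type libraries. In bulk tissue, fewer cells that make a transcript and less of that transcript per cell cannot be told apart. Of the 10 tapetum markers listed for this work, 5 fell, 1 rose and 4 did not pass in the same libraries. Among all tested rows, 5.18% fell and 7.8% rose. The summed level of the 10 markers was 3627 to 9056 FPKM in dmd1 and 37982 to 42891 FPKM in wild-type anthers, and none was at 0. That sum rests mostly on the most abundant markers, so it does not describe each of the 10. Those that did not pass were UDT1 (log2 change 0.08), TDR (-0.07), PTC1 (-1.55) and C6 (-6.39, limma adjusted p = 0.103). CYP704B2, a cytochrome P450 gene of pollen wall formation, fell with a log2 change of -2.91 (limma adjusted p = 0.00794). TIP2, an early tapetal regulator, rose with one of 1.79 (limma adjusted p = 0.00326). The part of these marker differences in the AGO18 result was not tested.

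**Figure D1:**
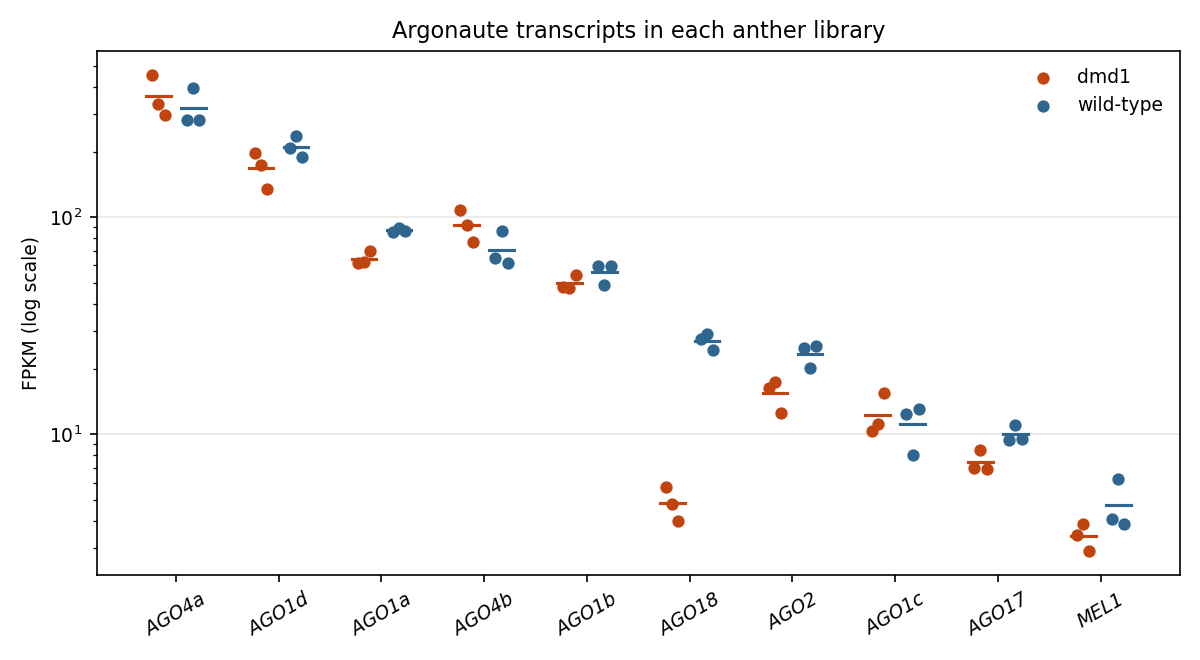
FPKM of each Argonaute transcript on a log axis, with dmd1 libraries left of wild-type libraries, 1 point per library and a bar at the mean of 3 libraries. AGO18 is the transcript whose groups are widely separated, at 3.996 to 5.75 FPKM in dmd1 and 24.4 to 28.9 FPKM in wild-type anthers.

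Of the 10 Argonaute genes, 1 fell, none rose and 9 did not pass. Over all tested rows, 5.18% fell and 7.8% rose by the same limma test, so a single fall among 10 is close to the background share of calls. AGO18 also met a log2 change limit of 1, as did 3.54% of tested rows in that direction and 3.16% in the other. At an unadjusted limma p under 0.05, 4 Argonaute genes were lower and 0 were higher, against 10.9% and 20.4% of tested rows. The median log2 change was -0.35 over the 10 genes and 0.12 over all tested rows. In 5 genes every dmd1 library lay below every wild-type library and in 0 it lay above, against 13.1% and 25.3% of tested rows. Those 5 were AGO18, AGO2, AGO1a, AGO17 and MEL1. At equal totals this tally was 1 below (AGO18), 2 above (AGO4a and AGO4b) and 7 overlapping, against 8.4% of tested rows below and 34.9% above.

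MEL1 (OS03G0800200), which is known to act in rice germ cells from before meiosis, had the lowest level of the 10 in both genotypes. It stood at 3.43, 3.88 and 2.89 FPKM in dmd1 libraries 1 to 3, against 4.09, 6.20 and 3.88 FPKM in wild-type libraries 1 to 3. The groups met almost exactly, since dmd1 library 2 and wild-type library 3 differed only in the third decimal, and wild-type library 2 stood above the other two. The log2 change was -0.36 ± 0.20 (SE, limma adjusted p = 0.28), with a 95% interval from -0.85 to 0.13, so a difference was not shown. It was -0.70 between dmd1 library 1 and wild-type library 2 and -0.19 over the other 4 libraries. At equal totals the MEL1 groups overlapped, at 3.27 to 4.26 in dmd1 and 4.05 to 4.82 in wild-type libraries.

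Genes of meiosis, the stage before the sampled one, gave another view of the germ cells. Of 12 listed meiocyte markers, 10 were tested, of which 2 rose and none fell, where 7.8% of all tested rows rose. At an unadjusted limma p under 0.05, 4 were higher and 0 were lower, where 20.4% and 10.9% of all tested rows were. The cohesin gene REC8 rose by a log2 change of 0.87 (limma adjusted p = 0.0147), and HEI10, a crossover factor, by 0.76 (adjusted p = 0.0202). REC8 lost its call in 3 of 17 alternative fits and HEI10 in 5. The summed level of the 12 markers was 79.8 to 90.7 FPKM in dmd1 and 58.7 to 78.9 FPKM in wild-type anthers. The untested markers PAIR1 and ZEP1 were below the limit of 1 FPKM in most libraries but not at 0. MEL1 was thus not called while REC8 and HEI10 rose, and the difference between MEL1 and them was not tested. The rows whose profile over the 6 libraries lay nearest to that of MEL1 were OS11G0614900 and OS09G0468900, with root mean square differences of 0.03 and 0.04 on the centred log2 scale among 15691 candidate rows. The table does not name them.

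The AGO1 genes were led by AGO1d, which is known in rice to act with AGO1b on phasiRNAs in the anther wall. AGO1d (OS06G0729300) stood at 198, 174 and 135 FPKM in dmd1 libraries 1 to 3, against 209, 237 and 189 FPKM in wild-type libraries 1 to 3. Dmd1 library 1 overlapped the wild-type range, and the other two dmd1 libraries lay below it. Its log2 change was -0.33 ± 0.19 (SE, limma adjusted p = 0.274), with a 95% interval from -0.78 to 0.11. AGO1a (OS02G0672200), which like other AGO1 proteins loads microRNAs, was at 61.5, 62.1 and 70.2 FPKM in dmd1 and at 85.2, 89.6 and 86.4 FPKM in wild-type anthers. The AGO1a groups did not overlap in FPKM, but at equal totals they did, at 58.6, 68.2 and 86.9 in dmd1 and 84.4, 69.6 and 95.03 in wild-type libraries. Its log2 change of -0.43 ± 0.12 (SE) missed the threshold (limma adjusted p = 0.0606). Its 95% interval ran from -0.71 to -0.15 before adjustment over rows. AGO1a passed in 2 of 17 alternative fits, median-of-ratios scaling and library weights, with an adjusted p of 0.00333 to 0.423 over all 17.

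AGO1b and AGO1c overlapped between the genotypes. AGO1b (OS04G0566500) had 47.8, 47.4 and 54.1 FPKM in dmd1 libraries, against 59.9, 48.8 and 59.7 FPKM in wild-type libraries. Its log2 change was -0.17, with a 95% interval from -0.49 to 0.16 (limma adjusted p = 0.449), and its sign turned when libraries were scaled to equal totals. AGO1b passed with library weights (log2 change -0.30, adjusted p = 0.0217), within a range of 0.0217 to 0.931 over the 17 alternatives. AGO1c (OS02G0831600) had 10.4, 11.1 and 15.5 FPKM in dmd1 libraries, against 12.4, 8.02 and 13.1 FPKM in wild-type libraries. The log2 change of AGO1c was 0.14, with a 95% interval from -0.42 to 0.70 (limma adjusted p = 0.729), and its sign turned with library weights and in fits without dmd1 library 3 or wild-type library 2. Both transcripts were lowest among wild-type libraries in library 2 and highest among dmd1 libraries in library 3, whereas AGO1d was highest and lowest in those libraries. The 4 AGO1 genes together summed to 318, 295 and 275 FPKM in dmd1 and to 366, 383 and 349 FPKM in wild-type anthers, without overlap. At equal totals those sums overlapped, at 303 to 340 in dmd1 and 298 to 383 in wild-type libraries.

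The AGO4 genes had positive log2 changes. AGO4a (OS01G0275600) was the most abundant Argonaute transcript, at 454, 334 and 294 FPKM in dmd1 libraries 1 to 3, against 280, 392 and 280 FPKM in wild-type libraries 1 to 3. Dmd1 library 1 and wild-type library 2 were the high libraries of their groups, and the groups overlapped. The log2 change was 0.18 ± 0.23 (SE, limma adjusted p = 0.639), with a 95% interval from -0.37 to 0.73. AGO4b (OS04G0151800), the other gene for DNA methylation, stood at 108, 92.0 and 76.9 FPKM in dmd1 and at 64.7, 86.4 and 61.3 FPKM in wild-type anthers. The AGO4b groups overlapped only through dmd1 library 3 and wild-type library 2. Its log2 change was 0.38 ± 0.19 (SE, limma adjusted p = 0.236), with a 95% interval from -0.08 to 0.84. The call depended on the fit. With libraries set to equal totals AGO4b passed (log2 change 0.58, limma adjusted p = 0.0188), as it did with quantile normalization (0.46, adjusted p = 0.0357) and with library weights (0.50, adjusted p = 0.00892). With median-of-ratios scaling it did not pass (0.26, adjusted p = 0.284). Over the 17 alternatives the adjusted p of AGO4b ran from 0.00892 to 0.478. At equal totals AGO4b was at 103, 101 and 95.2 in dmd1 and at 64.1, 67.1 and 67.5 in wild-type libraries, without overlap. AGO4a did not overlap on that scale either, at 364 to 433 in dmd1 and 278 to 308 in wild-type libraries. Equal totals moved the median log2 change of all rows to 0.29, against 0.12 without that scaling, so the relative position of AGO4b moved less than its value.

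AGO2 is known in rice to act in the anther, where it influences reactive oxygen and the timing of tapetal cell death. AGO2 (OS04G0615700) was at 16.3, 17.5 and 12.6 FPKM in dmd1 libraries 1 to 3, against 24.9, 20.1 and 25.6 FPKM in wild-type libraries 1 to 3. All dmd1 libraries were lower than all wild-type libraries in FPKM, but at equal totals the ranges overlapped, at 15.5 to 19.3 in dmd1 and 15.6 to 28.1 in wild-type libraries. The log2 change of -0.58 ± 0.17 (SE) did not pass (limma adjusted p = 0.0676), with a 95% interval from -0.98 to -0.18 before adjustment over rows. It was -0.29 between dmd1 library 1 and wild-type library 2 and -0.73 over the other 4 libraries. AGO2 passed once libraries were scaled by the median of ratios (adjusted p = 0.0411) and with library weights (0.00935), within a range of 0.00935 to 0.261 over the 17 alternatives. AGO17 (OS02G0169400) had 6.98, 8.46 and 6.95 FPKM in dmd1 and 9.46, 11.1 and 9.52 FPKM in wild-type anthers. Its groups did not overlap in FPKM but did at equal totals, and its log2 change of -0.38 ± 0.14 (SE) did not pass (limma adjusted p = 0.12).

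**Figure D2:**
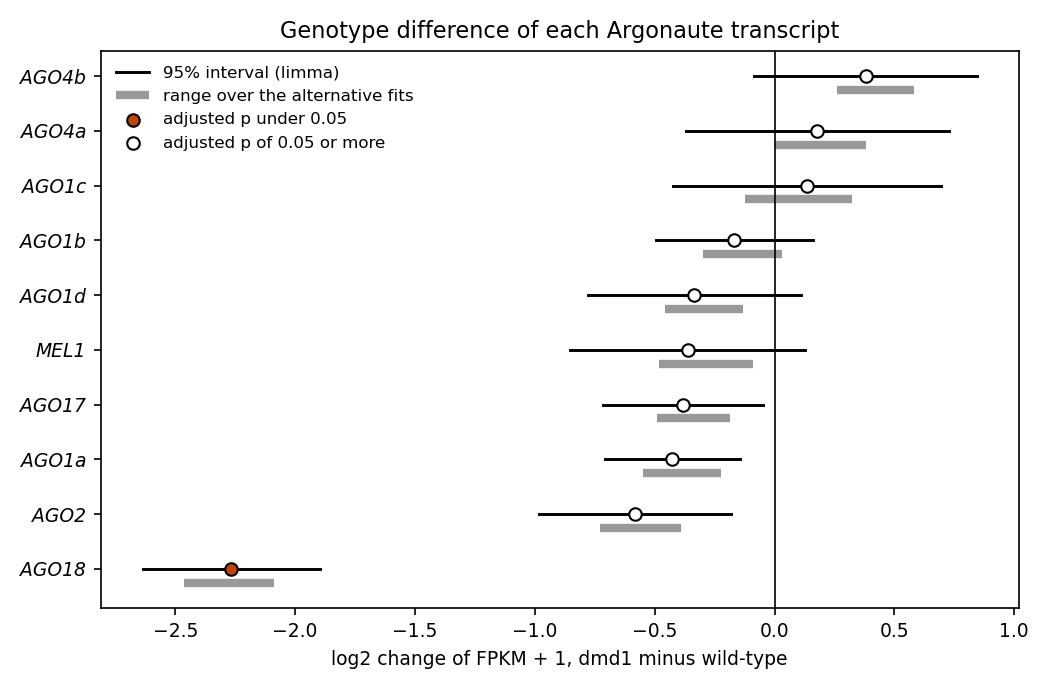
Log2 change of FPKM + 1, dmd1 minus wild-type, for each Argonaute transcript, with a line for the 95% interval, a grey bar for the range over 17 alternative fits, and a filled point where the adjusted p was under 0.05. AGO18 at -2.27 is the filled point, and the other 9 lie between -0.58 and 0.38.

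Ordered by mean level, the ends of the family were the same in both genotypes and the middle was not. In dmd1 the order was AGO4a, AGO1d, AGO4b, AGO1a, AGO1b, AGO2, AGO1c, AGO17, AGO18 and MEL1. In wild-type anthers it was AGO4a, AGO1d, AGO1a, AGO4b, AGO1b, AGO18, AGO2, AGO1c, AGO17 and MEL1. AGO18 thus held rank 9 in dmd1 and rank 6 in wild-type anthers. The neighbours whose library ranges overlapped were AGO2 and AGO1c in dmd1, and AGO1a and AGO4b, AGO18 and AGO2, and AGO1c and AGO17 in wild-type anthers. Among all tested rows AGO18 stood at the 33.5th percentile of mean FPKM in dmd1 and at the 77.8th in wild-type anthers, while AGO4a stood at the 98.9th and the 98.6th.

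The make-up of the Argonaute transcript pool is not altered by a single scaling factor per library, because each share is taken within a library. The AGO4 genes held 61.6%, 56.4% and 55.2% of the summed FPKM of the 10 genes in dmd1 libraries 1 to 3, against 44.4%, 51.5% and 45.3% in wild-type libraries 1 to 3. The 4 AGO1 genes held 34.9%, 39.0% and 40.8% in dmd1, against 47.1%, 41.3% and 46.3% in wild-type anthers. Both sets of shares were separate between the genotypes, narrowly so for the AGO1 genes. The sum over the 10 genes was 672 to 913 FPKM in dmd1 and 754 to 928 FPKM in wild-type anthers, which overlapped. AGO18 held 0.62 ± 0.02% in dmd1 and 3.30 ± 0.22% in wild-type anthers (SD, n = 3 each). The shares of a pool are tied to each other, and they are given as descriptions, without a test or a background from other gene sets.

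**Figure D3:**
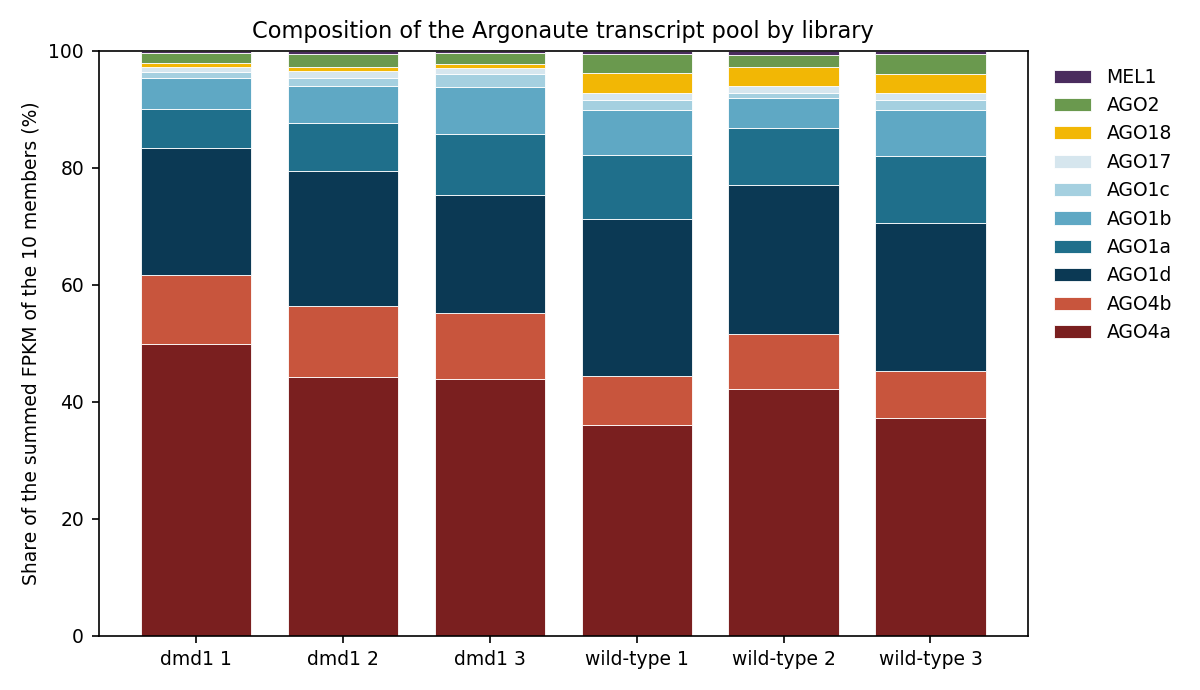
Share of each gene, in percent, in the summed FPKM of the 10 Argonaute genes, with 1 bar per library and dmd1 libraries on the left. The AGO4a and AGO4b segments at the foot of the bars reach 55.2% to 61.6% in dmd1 and 44.4% to 51.5% in wild-type libraries, and the AGO18 segment is thin in dmd1.

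Ratios between pairs of members were chosen after their values were seen. No share over all pairs of rows was computed beside them. Of single tested rows, 25.3% lay above wild-type in every dmd1 library and 13.1% below. AGO4a was 2.29, 1.92 and 2.19 times AGO1d in dmd1 libraries, against 1.34, 1.65 and 1.48 times in wild-type libraries. AGO4b relative to AGO1d was 0.543, 0.528 and 0.571 in dmd1, against 0.310, 0.365 and 0.324 in wild-type anthers. Neither ratio to AGO1d overlapped between genotypes. Relative to the other AGO1 genes the contrast was less regular. Of 4 ratios, 1 for each AGO1 gene, dmd1 lay above wild-type without overlap in 1 for AGO4a and in 2 for AGO4b, the second being AGO4b to AGO1a. The ratio of AGO4a to AGO1c, for example, was 43.9, 29.98 and 19.0 in dmd1, against 22.5, 48.9 and 21.3 in wild-type anthers. AGO1a relative to AGO1b was steady in dmd1 at 1.29, 1.31 and 1.30, against 1.42, 1.83 and 1.45 in wild-type anthers. AGO4a was 4.21, 3.63 and 3.83 times AGO4b in dmd1, against 4.34, 4.54 and 4.57 times in wild-type anthers, without overlap. Neither AGO4 gene passed in the main fit. MEL1 relative to AGO1d overlapped, at 0.0173 to 0.0223 in dmd1 and 0.0196 to 0.0262 in wild-type anthers. MEL1 exceeded AGO18 in no library, but its level relative to AGO18 was 0.597 to 0.811 in dmd1 and 0.148 to 0.215 in wild-type anthers. Similar genes such as AGO4a and AGO4b share sequence, and how accurately ambiguous fragments were divided between them is unknown.

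The small RNAs that Argonautes load are made by Dicer-like nucleases, RNA-dependent RNA polymerases and their partners. Of 11 such genes listed, all tested, 2 rose, 2 fell and 7 did not pass, with a median log2 change of 0.01. Over all tested rows, 7.8% rose and 5.18% fell. The reference gene table lists the symbols of 4 of these 11, each on the chromosome of its identifier. Those of DCL1, DCL2b, DCL3a, DCL5, RDR1 and RDR6 were not found there. The rows listed as DCL2b (OS09G0315100) and DCL4 (OS04G0509300), Dicer-like genes, fell, with 20.2 ± 1.05 and 23.7 ± 2.76 FPKM in dmd1, against 45.2 ± 0.85 and 47.0 ± 7.93 FPKM in wild-type anthers (SD, n = 3 each). DCL4 is the enzyme that cuts the shorter class of phasiRNAs in rice, the class MEL1 binds. Their log2 changes were -1.12 ± 0.10 and -0.95 ± 0.16 (SE, limma adjusted p = 0.00417 and 0.0171). DCL2b is close in sequence to DCL2a (log2 change -1.19, limma adjusted p = 0.0623), so the division of fragments between them is uncertain.

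The 2 that rose were polymerase genes. The row listed as RDR1, also a polymerase gene, did not pass (log2 change -0.21, limma adjusted p = 0.403). The row listed as RDR2 (OS04G0465700), which makes double-stranded precursors for the AGO4 pathway, rose to 27.5 ± 1.66 FPKM in dmd1, against 17.6 ± 0.90 FPKM in wild-type anthers (SD, n = 3 each, limma adjusted p = 0.0201). The row listed as RDR6 (OS01G0527600), which makes those of phasiRNAs, rose to 22.0 ± 0.87 FPKM in dmd1, against 13.1 ± 3.26 FPKM in wild-type anthers (SD, n = 3 each, limma adjusted p = 0.045). DCL2b passed in all 17 alternative fits, DCL4 in 13, RDR2 in 12 and RDR6 in 9. The DCL4 call was lost without dmd1 library 2 (adjusted p = 0.077), dmd1 library 3 (0.0506) or wild-type library 1 (0.0623), and with the replicate block (0.0525). RDR2 was lost without dmd1 library 1 (0.0595) or 2 (0.0906), without wild-type library 1 (0.0817) or 3 (0.0793), and with the replicate block (0.0609). RDR6 was lost without any single library except wild-type library 2 (0.0941 to 0.134), with the replicate block (0.0851), without the filter on low values (0.068) and with the simpler spread model (0.0508). The row listed as DCL5, the Dicer-like gene of the longer class of phasiRNAs, did not pass (limma adjusted p = 0.536). It was at 3.53 ± 0.21 FPKM in dmd1 and 3.99 ± 0.25 FPKM in wild-type anthers (SD, n = 3 each).

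**Figure D4:**
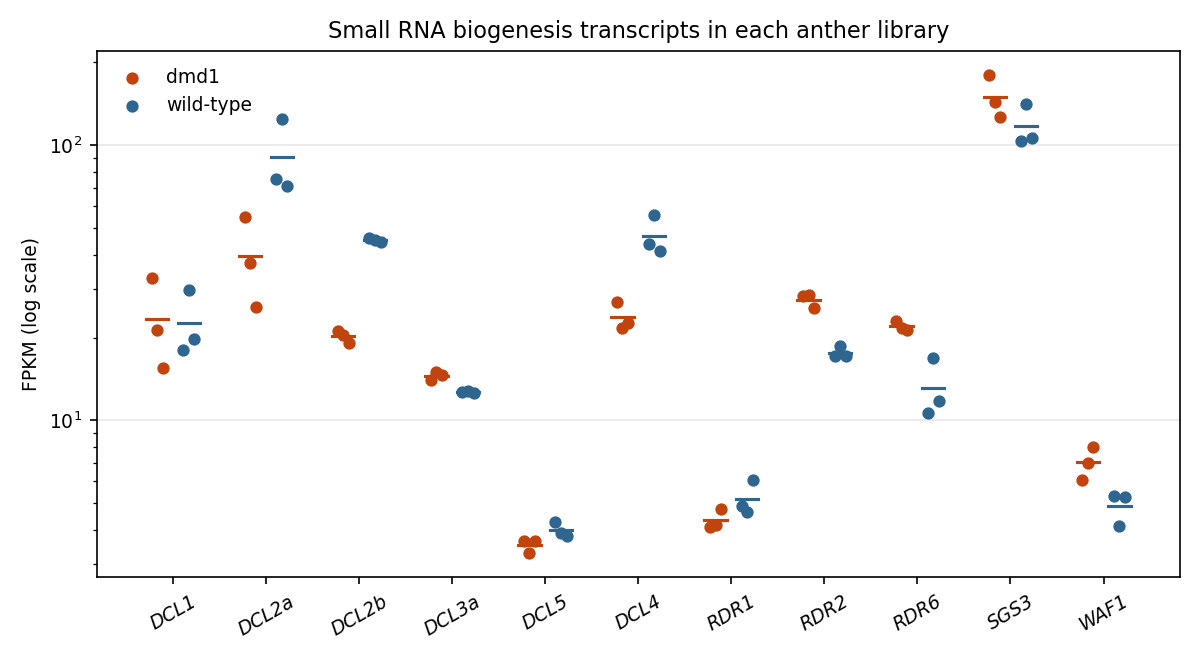
FPKM of 11 small RNA biogenesis transcripts on a log axis, with dmd1 libraries left of wild-type libraries, 1 point per library and a bar at the mean of 3 libraries. DCL2b and DCL4 sit lower in dmd1 and RDR2 and RDR6 higher, and the other 7 did not pass the test.

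Against these partners, AGO18 had the largest change of the 21 genes of both lists. The rows nearest to AGO18 in profile, named after its value was seen, were OS04G0685900 and OS10G0195000, with root mean square differences of 0.08 and 0.11. Their log2 changes of -2.23 and -2.19 follow from this choice by profile among 15691 candidate rows. OS04G0685900 stood at 12.2, 12.1 and 10.6 FPKM in dmd1 and at 61.4, 61.2 and 52.0 FPKM in wild-type anthers. Of 4 listed green tissue markers, 1 fell, CAB2R (log2 change -1.66, limma adjusted p = 0.0223), where 5.18% of all tested rows fell. The CAB1R log2 change of -1.01 missed the threshold (limma adjusted p = 0.172), though CAB1R passed with the replicate block (0.0416) and with library weights (0.00594). RBCS averaged 30.6 FPKM in dmd1 and 20.4 FPKM in wild-type anthers. PSBS averaged 8.49 FPKM in dmd1 and 8.43 FPKM in wild-type anthers, and neither passed. The summed level of the 4 was 90.3 to 135 FPKM in dmd1 and 158 to 285 FPKM in wild-type anthers, and their part in the Argonaute values was not tested.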

How the data were processed

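The authors deposited 1 table of FPKM values, with 1 row per gene and 1 column per library. Per the submitters' processing notes, fastp, HISAT and RSEM were used with genome build IRGSP-1.0. Versions, gene annotation, strandedness and upstream filters were not stated in the labels. Because the values are FPKM, count models were not applied, and fragment depth is unknown.

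Columns were matched to libraries by name, and no pair of libraries was identical. Rows with at least 1 FPKM in at least 3 of 6 libraries were kept (25474 rows), transformed to log2(FPKM + 1) and fitted with limma 3.58.1 in R 4.3.3 (eBayes with trend and robust options, no replicate block). The fit was also run on simulated data with independent noise in each row and library. The real libraries share deviations across rows, so that run does not test the calls made here. Fold changes on this scale understate those of low rows. Errors of log2 changes are SE, and errors of means are SD.

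The members and lists (11 biogenesis genes, 12 meiocyte, 10 tapetum and 4 green tissue markers) were chosen with earlier results of these data known, and their symbols were written beside identifiers from general knowledge. The named genes are all 10 members, the 4 biogenesis genes and 2 markers per list with the smallest p, and the 2 rows nearest to MEL1. Others were named once their values had been seen. They were UDT1, TDR, PTC1, PKS1, C6, RBCS, PSBS, DCL1, DCL2a, DCL3a, DCL5, RDR1, PAIR1, PAIR2, ZEP1, ZIP4 and the rows nearest to AGO18. The alternatives were another pseudocount (0.1), 3 other row sets, 3 scalings, eBayes without its options, weights per library, the replicate number as a block and fits without each library. Leaving out a pair of libraries was added after the data were seen.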

Additional observations from a re-analysis of the deposited data

How the results depend on the processing

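The fall of AGO18 passed in all 17 alternative fits, with log2 changes from -2.46 to -2.09 and adjusted p from 6.99e-05 to 0.0258. Leaving out single libraries gave 1 lower and 0 higher Argonaute genes each time. The count of higher genes was 1, in place of 0, with quantile normalization, equal totals and library weights (AGO4b each time). The count of lower genes was 3 with median-of-ratios scaling and 4 with library weights, in place of 1. Of 25474 tested rows, 1964 were higher with quantile normalization, 3727 with equal totals and 7511 with library weights, against 1988 in the main fit. Lower rows numbered 1931 with median-of-ratios scaling and 3423 with library weights, against 1319 in the main fit. The weights rest mostly on dmd1 library 2 (weight 9.13, with 0.471 for dmd1 library 1 and 0.438 for dmd1 library 3). Signs turned for AGO1b with equal totals (0.033) and for AGO1c with library weights (-0.12) and in fits without 1 library, where its log2 change ran from -0.068 to 0.26. The cause was not tested. Leaving out single libraries, the difference in pool share (dmd1 minus wild-type, percentage points) ran from 8.73 to 12.9 for the AGO4 genes, -8.45 to -4.96 for the AGO1 genes and -2.78 to -2.56 for AGO18. It turned sign for AGO1b (-1.29 to 0.20) and AGO1c (-0.098 to 0.49), and ran from -3.21 to -1.36 for AGO1a and from -0.167 to -0.081 for MEL1.

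Of same-numbered libraries, only those numbered 3 deviated in the same direction (r = -0.35, -0.01 and 0.35 for numbers 1 to 3). Dmd1 library 3 was about as close to wild-type library 1 (r = 0.33). Dmd1 library 1 was most like wild-type library 2 (r = 0.49). The numbers were therefore not taken as pairs. With 3 libraries per group these r values are tied to each other. With the replicate block AGO18 stayed called (log2 change -2.27, limma adjusted p = 0.0201), the other 9 Argonaute genes did not pass, and 830 rows were higher and 846 lower in the whole table, against 1988 and 1319. Over all alternatives those totals ran from 357 to 7511 and from 342 to 3423, so the background shares depend on the processing. Depth is unknown, and it may limit low rows such as MEL1 most.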
